A study of Homo sapiens with 6 samples.

Results

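The EGF family consists of growth factors that signal through the ERBB receptors, and 10 of its genes were followed here in breast cancer cells carrying an additional maspin cDNA and in their controls. The 10 genes were chosen by symbol, with every probe that carries the symbol: the ligands EREG, AREG, HBEGF, TGFA, BTC, EPGN and NRG1, and the receptors EGFR, ERBB2 and ERBB3. They accounted for 12 of 24460 gene probes and for 10 of 19771 named genes on the array, with AREG and NRG1 measured by 2 probes each. The rule used gene symbols and no intensity, but the family was picked with earlier results of these arrays known.

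Both cell lines were made from MDA-MB-231, an invasive breast cancer line without oestrogen receptor, progesterone receptor or ERBB2 amplification, by lentiviral transduction and blasticidin selection. MB-231-maspin received maspin joined through a P2A peptide to the fluorescent protein ZsGreen, and MB-231-control received ZsGreen alone, both under the CMV promoter. Each line is a pool of the clones that survived selection, so each genotype is represented by 1 pool. Total RNA of each line was labelled with Cy5 and hybridised to 3 one-colour 3D-Gene oligonucleotide arrays, 6 in all. No source used here states whether separate cultures were hybridised for the 3 arrays of a line. The p-values therefore cover only the spread between these arrays, which may be technical.

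EGF family ligands are made as membrane-anchored precursors. Metalloproteases, above all ADAM17, cut most of them off the cell surface, and the freed ligand binds a receptor on the same or a neighbouring cell. EGFR binds EGF, TGFA, AREG, EREG, HBEGF, BTC and EPGN, ERBB4 binds the neuregulins and also EREG, HBEGF and BTC, and ERBB3 binds NRG1. ERBB2 has no known ligand and works as the partner of the other receptors, while ERBB3 has an impaired kinase and relies on its partner. Paired receptors activate the RAS/ERK and PI3K/AKT cascades. In basal-like breast cancer cells, AREG, EREG, HBEGF and TGFA are known as ligands that the tumour cells themselves release.

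EREG and AREG are the only members with a probe that passed the test described below. For AREG only the dimmer of its probes did, close to the threshold. The genes lie next to each other on chromosome 4, between EPGN and BTC. The 300 bases around the start of each gene, 250 before and 50 from the start onward, are shown for comparison letter by letter. The 2 genes were chosen for this because the probes of both gave lower values on the arrays labelled MB-231-maspin. They were taken from RefSeq (GRCh38.p14), which lists such a promoter for 8 of the 10 members (NRG1 and ERBB3 are the other 2), and lie at chr4:74364895-74365194 for EREG and chr4:74444886-74445185 for AREG, both on the plus strand. Capitals mark the motifs TGACG, TGACGTCA and TATAAA wherever they occurred on either strand.
EREG: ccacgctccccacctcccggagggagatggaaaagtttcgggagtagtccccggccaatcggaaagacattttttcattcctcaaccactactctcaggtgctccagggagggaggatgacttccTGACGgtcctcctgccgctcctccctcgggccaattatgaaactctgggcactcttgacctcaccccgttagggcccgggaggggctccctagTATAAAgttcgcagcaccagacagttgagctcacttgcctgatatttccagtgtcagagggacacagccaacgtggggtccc
AREG: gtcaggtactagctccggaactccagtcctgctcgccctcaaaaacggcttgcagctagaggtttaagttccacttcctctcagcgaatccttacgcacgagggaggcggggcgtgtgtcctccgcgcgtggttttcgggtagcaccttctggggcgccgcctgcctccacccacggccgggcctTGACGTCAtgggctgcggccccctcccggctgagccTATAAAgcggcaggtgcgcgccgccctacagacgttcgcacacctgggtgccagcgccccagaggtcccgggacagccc
Positions are counted back from the first base of the gene, the base before it being -1. Both promoters held a TATAAA motif close to the start, the core of the TATA box, at -32 in EREG and -29 in AREG. That motif was present in 11.5% of 35116 RefSeq promoters of the same length. AREG also held TGACGTCA at -65, the full cyclic AMP response element, which occurred in 1.85% of promoters. EREG held only the shorter TGACG, at -125, a motif found in 24.6% of promoters and contained in the longer one. TGACG also occurred in EPGN (2 matches, the first at -44) and at a listed start of TGFA (-154). CCAAT, present in 34.6% of promoters, was searched as well. It had 2 matches in EREG, 0 in AREG, and 1 each in EPGN and ERBB2. The AP-1 element TGANTCA (N for any base), present in 7.71% of promoters, was also searched. It had 0 matches in EREG and AREG, 2 at 1 of the EGFR starts and 1 in ERBB2. None of the other 6 members with a listed promoter held TGACGTCA. EPGN held TATAAA at -29, whereas HBEGF, TGFA, BTC and ERBB2 held no TATAAA in these windows. EGFR has 2 listed starts, of which 1 held no TATAAA and the other held 2, the first at -146. These matches describe letters and were not tested as binding sites.

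Before the members, the arrays themselves. The gene carried by the vector, SERPINB5, gave no brighter signal in the maspin-labelled arrays (those labelled MB-231-maspin), with normalized intensities of 4.20, 2.79 and 4.40, than in the control-labelled arrays (those labelled MB-231-control), with 5.10, 5.61 and 4.11. Normalized intensity is the signal after background subtraction, scaled to the same median on every array, and it has no unit. The SERPINB5 signal was near the floor in both lines, with means of 3.80 in MB-231-maspin and 4.94 in MB-231-control. Both means lay under the minimum of 10 used below, so the probe was not tested. Its signal exceeded the brightest negative control spot on 5 of 6 arrays. The files used here do not place the SERPINB5 probe within the transcript, so whether it can detect the cDNA in the vector was not tested. On these arrays the labels could therefore not be checked against the targeted gene, and every direction given here rests on them. For the cell lines, the study reports more maspin mRNA by RT-qPCR and more maspin protein by western blot in MB-231-maspin. The mesenchymal-like genes VIM, AXL, CAV1, ANXA1, MSN and CD44 were bright on all 6 arrays (293 to 13757), ESR1 was blank on all 6, and PGR, PTPRC (the leukocyte antigen CD45) and PECAM1 (of endothelium) were blank or no brighter than 2.03. Among further leukocyte and endothelial markers, CD3E and CDH5 reached at most 6.44, and CD14 lay at 16.0 to 25.2. KRT19, EPCAM and CDH1, epithelial genes, were also measured on all 6 arrays (46.3 to 1332). So were the luminal markers GATA3 (20.9 to 28.6) and FOXA1 (24.2 to 26.5). Of 24460 probes, 87.1% to 91.3% had a value on an array. Among the control-labelled arrays, replicate 2 was the highest for 70.7% and replicate 3 the lowest for 71.0% of the 14898 tested probes with a value on all 6 arrays, and the members followed the same order, with replicate 2 highest for 10 of 10 member probes and replicate 3 lowest for 8 of 10.

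Of the 12 member probes, 10 passed the minimum set by the study, a mean normalized intensity above 10 in either line. They stood for 8 genes, since BTC was too dim and EPGN was blank. The log2 values of all 14903 probes that passed were compared by limma, maspin minus control, and p-values were adjusted by Benjamini-Hochberg over all of them. Of the 10 member probes, 2 were lower at an adjusted p under 0.05 on the maspin-labelled arrays (1 for EREG and 1 of the 2 for AREG), against 0.336% of all probes tested. None of the member probes was higher (0.51% of all probes), and neither limma nor the methods' t-test gave a higher one before adjustment (p under 0.05). Before adjustment, 3 of the 10 were lower in limma, against 3.87% of all probes. The number of members that passed was small, and for the list as a whole no shift was seen: the median log2 fold change was 0.028 over the 10 member probes and 0.034 over all probes tested, and 5 member probes were above 0 and 5 below, where 40.7% of all probes were below 0.

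**Figure D1:**
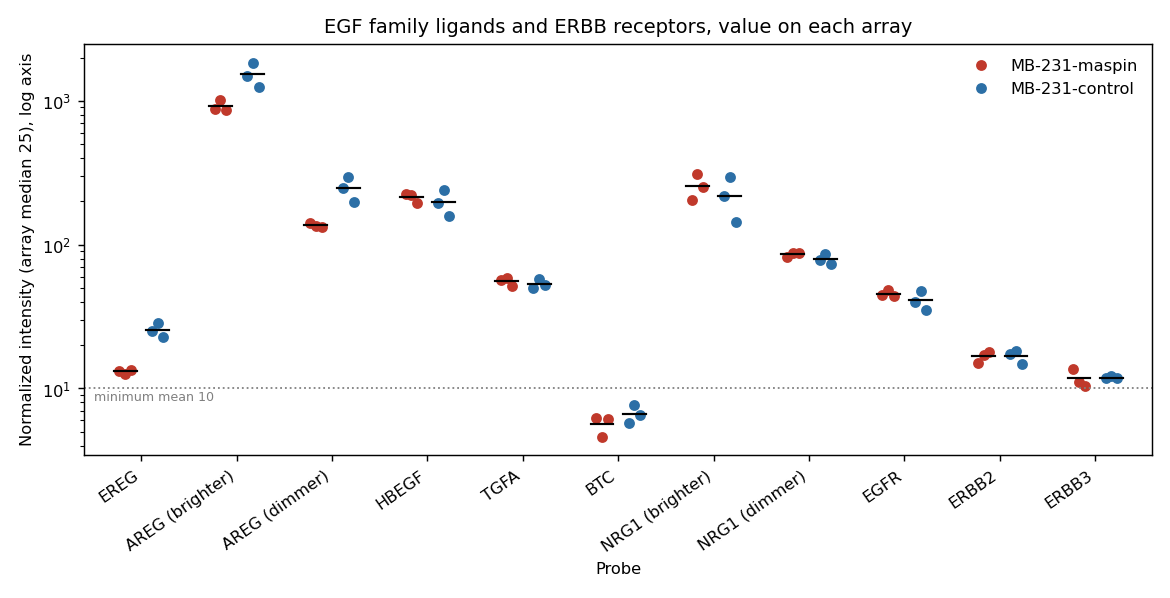
Normalized intensity (log axis) of the 11 member probes with a value, on the 3 maspin-labelled arrays (red, left of each pair) and the 3 control-labelled arrays (blue). Points are arrays and bars are means; EREG and both AREG probes are separated without overlap, and BTC lies under the minimum mean of 10.

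EREG encodes epiregulin, a ligand of EGFR and ERBB4. Its probe (Entrez Gene 2069) gave normalized intensities of 13.2, 12.6 and 13.5 on the maspin-labelled arrays and of 24.9, 28.6 and 22.7 on the control-labelled arrays. The highest maspin-labelled value thus lay well under the lowest control value. The means were 13.1 ± 0.446 in MB-231-maspin and 25.4 ± 2.95 in MB-231-control (SD, n = 3 each), and EREG fell by 0.95 on the log2 scale (SE 0.10, 95% interval -1.18 to -0.72, limma adjusted p = 0.00473). The fitted difference corresponds to a 1.93-fold higher level in MB-231-control. Among 14903 probes EREG had rank 33 by p and rank 18 by the size of the fall. The signal was low but above the brightest negative control spot on 6 of 6 arrays. It is a bulk measurement, in which fewer cells expressing EREG and less EREG RNA per cell cannot be told apart.

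The call for EREG held with each array left out in turn (limma adjusted p 9.99e-05 to 0.0490) but not in the methods' t-test, where the adjusted p was 0.105 on log2 values and 0.143 on linear values. The log2 fold change was smaller, -0.61 on log2(value + 10) and -0.40 after normexp background correction with an offset of 50 and quantile normalization. Both settings add a constant, which by construction shrinks the fold change of a dim probe.

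AREG encodes amphiregulin, a ligand of EGFR that needs shedding by ADAM17 for release. Both of its probes (Entrez Gene 374) are annotated to the same transcript. The brighter probe gave 878, 1007 and 863 on the maspin-labelled arrays and 1498, 1843 and 1249 on the control-labelled arrays. The dimmer probe gave 141, 135 and 133 on the maspin-labelled arrays, against 248, 296 and 197 on the control-labelled arrays. For both probes every maspin-labelled array lay below every control-labelled array, and the control arrays kept the order replicate 2, 1, 3 in both, as they did for EREG.

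The means of the brighter AREG probe were 916 ± 79.4 in MB-231-maspin and 1529.9 ± 298 in MB-231-control, with a log2 fold change of -0.73 (SE 0.14, 95% interval -1.05 to -0.40), which did not pass (limma adjusted p = 0.0785). Those of the dimmer probe were 136 ± 4.25 in MB-231-maspin and 247 ± 49.8 in MB-231-control (SD, n = 3 each). The dimmer probe fell by 0.84 on the log2 scale (SE 0.14, 95% interval -1.16 to -0.51, limma adjusted p = 0.0436). The probes thus gave similar sizes, with fitted differences corresponding to 1.65-fold and 1.79-fold higher levels in MB-231-control, on either side of the threshold. Both come from the same 6 RNA samples and are not independent. RefSeq gives AREGB, once listed as a second copy of the gene, as a synonym of AREG. Whether these probes would separate transcripts of such copies was not tested, since the probe sequences were not available.

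The spread of AREG was larger in the control line, with a coefficient of variation of 19.5% and 20.2% for the brighter and the dimmer probe, against 8.67% and 3.12% in MB-231-maspin. In the order maspin first, EREG had 3.40% and 11.6%. The call for the dimmer AREG probe was close to the threshold. The limma adjusted p was 0.178, 0.240 and 0.227 without replicate 1, 2 or 3 of MB-231-maspin. It was 0.201 without replicate 1, 0.0502 without replicate 2 and 1.82e-04 without replicate 3 of MB-231-control. The brighter probe passed without replicate 3 of MB-231-control (limma adjusted p = 0.00135) and with no other array left out. Both probes stayed below 0 in every setting in which they were run (17 for the dimmer, 18 for the brighter).

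**Figure D2:**
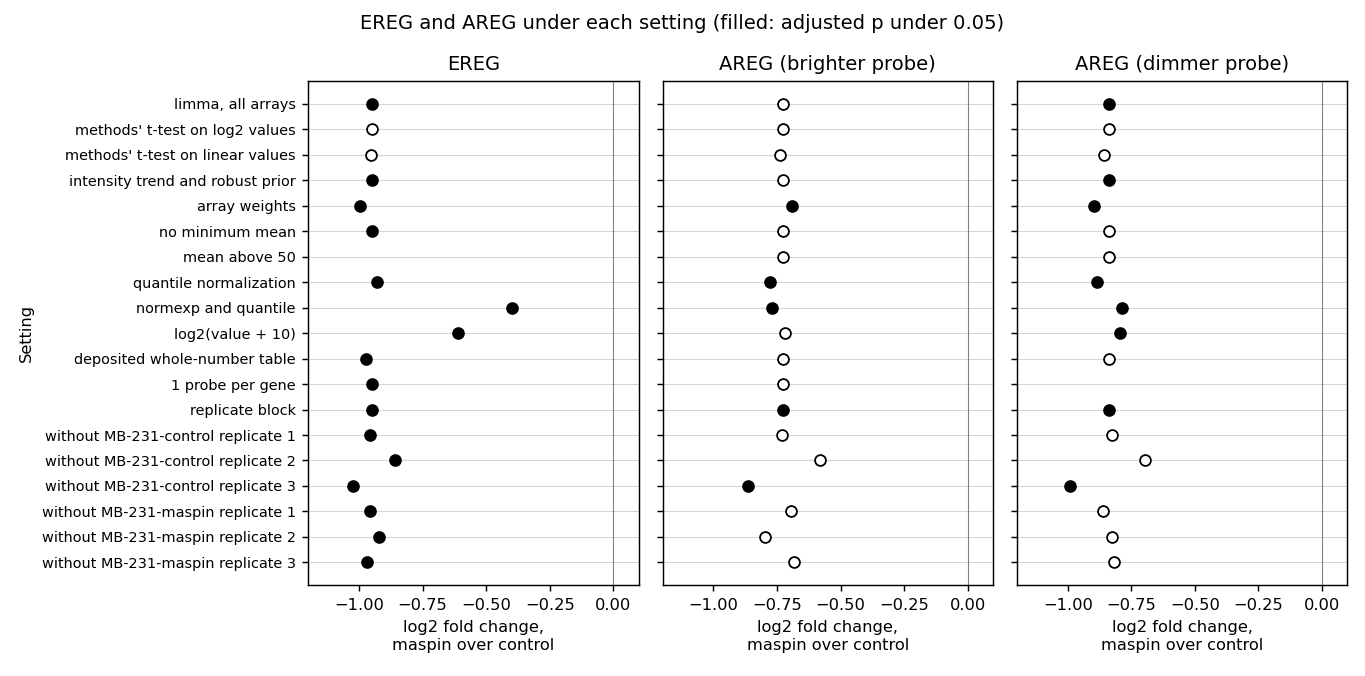
Log2 fold change, MB-231-maspin over MB-231-control, of EREG and the 2 AREG probes under each setting (rows), filled where the adjusted p was under 0.05 and missing where the probe was not tested. EREG passed in 15 of 17 alternative settings, the dimmer AREG probe in 7 of 17 and the brighter in 5 of 18, and all points lie below 0.

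EREG and the 2 AREG probes were the only member probes whose lines did not overlap. These 3 probes were lower in MB-231-maspin, a pattern shown by 6.85% of the 14898 tested probes with a value on all 6 arrays. The reverse, every maspin-labelled array above every control-labelled array, was shown by 0 member probes and by 13.7% of these probes.

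The other 2 EGFR ligands that could be tested did not pass. HBEGF, the heparin-binding ligand and diphtheria toxin receptor (Entrez Gene 1839), gave 224, 223 and 195 on the maspin-labelled arrays and 195, 241 and 159 on the control-labelled arrays. Its ranges overlapped, and the log2 fold change was 0.13 (SE 0.15, 95% interval -0.21 to 0.47, limma adjusted p = 0.749). TGFA, transforming growth factor alpha (Entrez Gene 7039), gave 57.1, 58.3 and 51.7 in MB-231-maspin and 50.1, 57.8 and 52.7 in MB-231-control. Its lines overlapped as well, with a log2 fold change of 0.06 (SE 0.09, 95% interval -0.15 to 0.26, limma adjusted p = 0.822). The intervals of HBEGF and TGFA both leave out a fall of the size measured for EREG.

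BTC, betacellulin, and EPGN, epigen, flank EREG and AREG on the chromosome and were at or near the detection limit. BTC (Entrez Gene 685) gave 6.19, 4.61 and 6.15 on the maspin-labelled arrays and 5.72, 7.63 and 6.49 on the control-labelled arrays. These ranges overlapped, the signal exceeded the brightest negative control spot on 5 of 6 arrays, and BTC lay under the minimum. In the fit with no minimum its log2 fold change was -0.23 (SE 0.16, 95% interval -0.61 to 0.15, limma adjusted p = 0.665). EPGN (Entrez Gene 255324) was blank on all 6 arrays, with a raw signal of 68.0 to 71.3 beside array backgrounds of 67.8 to 70.3. No difference between the lines was detectable for these 2 ligands at this signal.

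NRG1, neuregulin 1, is the only member ligand that does not bind EGFR, and its 2 probes (Entrez Gene 3084) are annotated to different transcripts. The brighter probe gave 205, 309 and 252 on the maspin-labelled arrays and 216, 298 and 143 on the control-labelled arrays. It varied more than any other tested member probe, with a coefficient of variation of 20.4% in MB-231-maspin and 35.3% in MB-231-control, and its log2 fold change of 0.27 (SE 0.26, 95% interval -0.32 to 0.86) did not pass (limma adjusted p = 0.695). The dimmer probe gave 82.7, 87.1 and 87.7 on the maspin-labelled arrays and 77.9, 86.0 and 73.7 on the control-labelled arrays. The lines overlapped there too, with a log2 fold change of 0.12 (SE 0.08, 95% interval -0.08 to 0.31, limma adjusted p = 0.584).

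None of the 3 receptors passed the test. EGFR (Entrez Gene 1956), the receptor of EREG and AREG, gave 44.7, 48.5 and 43.6 on the maspin-labelled arrays and 40.2, 47.4 and 35.3 on the control-labelled arrays. Its lines overlapped, with means of 45.6 ± 2.54 in MB-231-maspin and 41.0 ± 6.13 in MB-231-control (SD, n = 3 each) and a log2 fold change of 0.16 (SE 0.12, 95% interval -0.10 to 0.43, limma adjusted p = 0.577). ERBB2 (Entrez Gene 2064) gave 15.1, 17.2 and 18.0 on the maspin-labelled arrays and 17.5, 18.1 and 14.8 on the control-labelled arrays. Its difference was near 0, with a 95% interval of -0.25 to 0.25 on the log2 scale (limma adjusted p = 0.995). ERBB3 (Entrez Gene 2065), the NRG1 receptor, gave 13.7, 11.1 and 10.4 on the maspin-labelled arrays and 11.8, 12.1 and 11.8 on the control-labelled arrays, with a log2 fold change of -0.03 (95% interval -0.28 to 0.22, limma adjusted p = 0.929). Its control arrays were close together and lay within the range of the maspin-labelled ones. ERBB2 and ERBB3 were dim, which limits what can be detected for them.

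**Figure D3:**
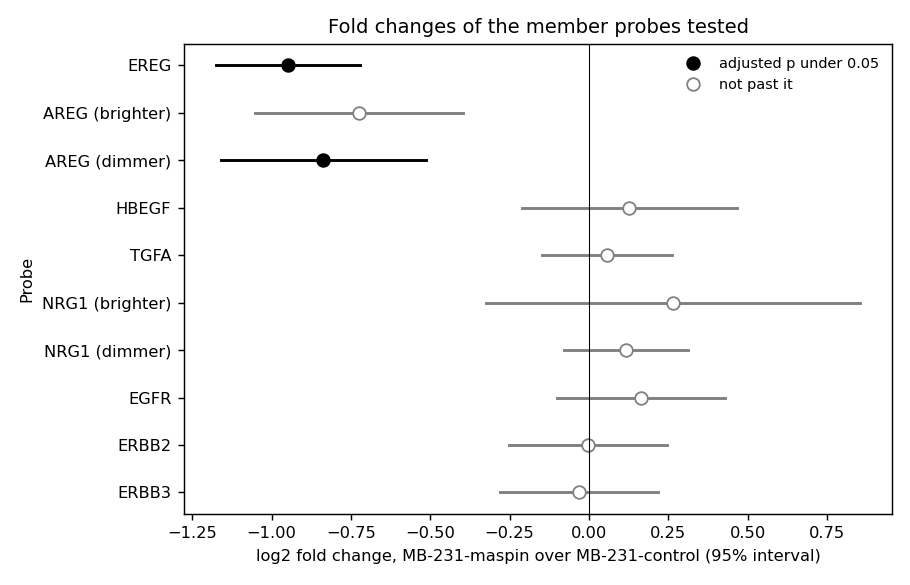
Log2 fold change, MB-231-maspin over MB-231-control, of the 10 member probes tested, with 95% intervals from limma (3 arrays per line) and filled points where the adjusted p was under 0.05. EREG and both AREG probes lie between -0.95 and -0.73, and the other 7 lie within 0.27 of 0 with intervals that cross it.

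**Figure D4:**
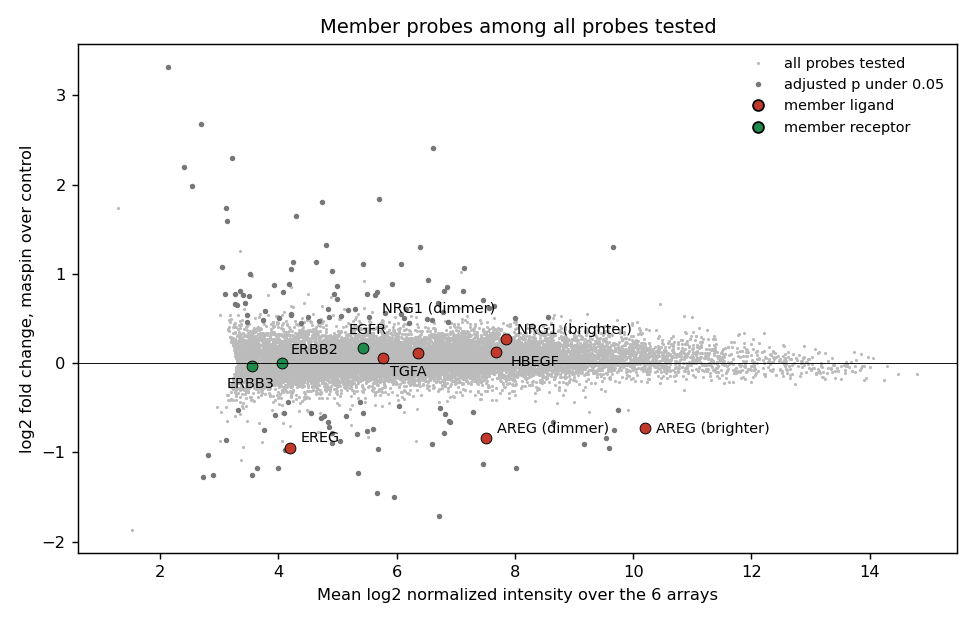
Log2 fold change, maspin over control, against the mean log2 normalized intensity over the 6 arrays for all 14903 probes tested (grey, darker where the adjusted p was under 0.05), with member ligands in red and member receptors in green. EREG and the AREG probes lie at the lower edge of the cloud, and the remaining members lie within it.

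EREG and AREG belong to a row of 4 EGF family genes on chromosome 4, and the 5 protein-coding genes that RefSeq (GRCh38.p14) places on either side of it were also on the array. In order these are PPBP, CXCL5, CXCL3, CXCL2 and MTHFD2L before EPGN, and PARM1, RCHY1, THAP6, ODAPH and CDKL2 after BTC. Of these 10 genes, 5 could be tested with 6 probes and none passed (limma, 0 of 6), with 1 at an unadjusted p under 0.05, against 0.845% and 13.4% of all probes tested. That gene was CXCL2, a chemokine that attracts neutrophils, with 43.0, 40.4 and 42.4 on the maspin-labelled arrays and 61.6, 53.1 and 60.1 on the control-labelled arrays. The lines did not overlap, with maspin below control, as for 6.85% of tested probes with a value on all 6 arrays. The log2 fold change of CXCL2 was -0.47 (SE 0.09, limma adjusted p = 0.0577). The other 5 tested probes ranged less widely, with PPBP at -0.18 (limma adjusted p = 0.517), CXCL3 at -0.05 (0.857), RCHY1 at 0.10 (0.603) and THAP6 at 0.04 in both of its probes. The median of the 6 neighbouring probes was -0.01. RCHY1 did not overlap between the lines either, with maspin above control, as for 13.7% of tested probes with a value on all 6 arrays. Under the minimum, in the fit without it, CXCL5 was at -0.43 (limma adjusted p = 0.371) and ODAPH at 0.55 (0.264). Both were without overlap, whereas MTHFD2L, PARM1 and CDKL2 overlapped.

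**Figure D5:**
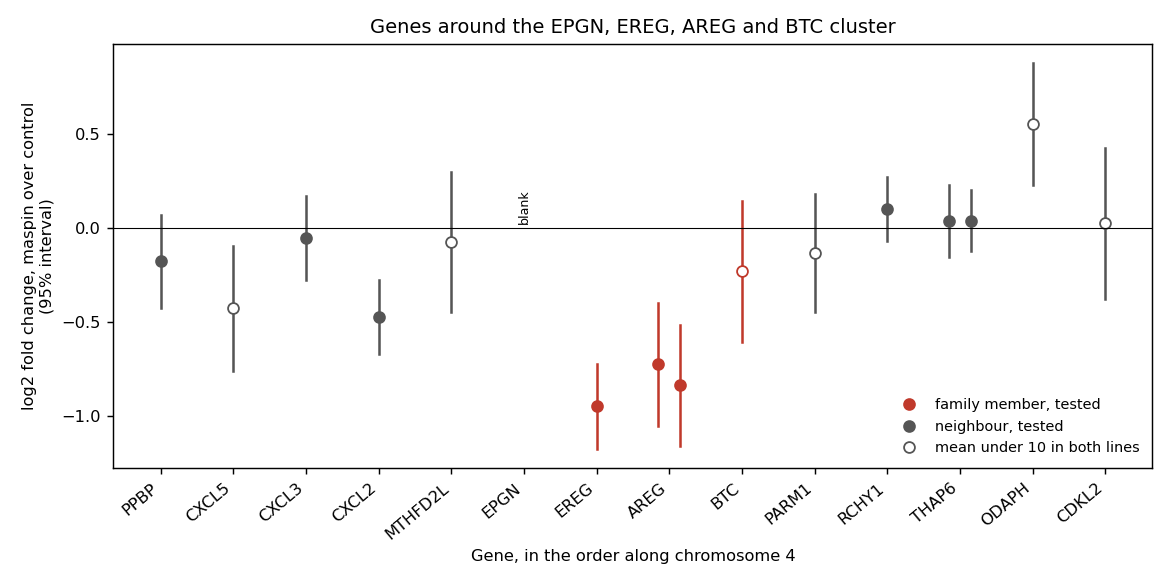
Log2 fold change, maspin over control, with 95% intervals from limma, for the 14 genes along chromosome 4 from PPBP to CDKL2, family members in red. Open points had means under 10 in both lines and come from the fit with no minimum, EPGN was blank, and EREG and AREG have the lowest values of the row.

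To find the probes most like EREG, the log2 values of each probe were centred on their own mean over the 6 arrays and compared by the root mean square difference. Of the 14897 other tested probes with a value on all 6 arrays, the dimmer AREG probe had a difference of 0.103 with 8 probes nearer, and the brighter AREG probe 0.163 with 20 nearer. The other member probes lay at 0.482 to 0.671, around the median of 0.503 over all probes. The nearest genes outside the family were HPGD (0.0633), which inactivates prostaglandin E2, PKIB (0.0824), an inhibitor of protein kinase A, ZG16B (0.0870), a secreted lectin-like protein, HCLS1 (0.0938), an actin regulator of blood cells, and HELZ (0.0965), a helicase. All 5 passed as lower on the maspin-labelled arrays (limma adjusted p 0.00234 to 0.0107). The log2 fold changes were -1.02 for HPGD, -0.90 for PKIB, -0.98 for ZG16B, -0.79 for HCLS1 and -0.96 for HELZ. Passing followed largely from the choice, since these genes were picked for a profile like that of EREG. HPGD reached the minimum only through the control line, with means of 4.92 in MB-231-maspin and 10.1 in MB-231-control. PKIB, for instance, gave 20.6, 23.0 and 22.4 on the maspin-labelled arrays and 38.1, 47.5 and 37.7 on the control-labelled arrays. The likeness is a description over 6 arrays that share the contrast between the lines.

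The rest of the pathway was described by 5 lists of 71 genes, of which 70 were on the array with 79 probes. Of these, 65 probes of 61 genes could be tested, and 0 passed in either direction (limma), with 9 at an unadjusted p under 0.05, against 0.845% and 13.4% of all probes. Among the other ligands and ERBB4, 3 of 7 probes were tested. The 2 with the smallest p were NRG3, a ligand of ERBB4, at -0.15 (limma adjusted p = 0.541), and EGF, at 0.14 (0.634). ERBB4, the remaining receptor of the family, was blank on all 6 arrays.

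The sheddases and rhomboids had 7 probes tested, a median log2 fold change of -0.08 and 1 probe at an unadjusted p under 0.05. That probe was ADAM17, the main sheddase of AREG and EREG, with 59.6, 59.7 and 61.6 on the maspin-labelled arrays and 45.1, 54.4 and 45.3 on the control-labelled arrays. ADAM17 did not overlap between the lines, but its log2 fold change of 0.33 (SE 0.09) did not pass (limma adjusted p = 0.193). RHBDL2, a rhomboid protease, was next at -0.12 (limma adjusted p = 0.656).

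The 13 tested probes of receptor inhibitors and degradation factors had a median of 0.13, with 3 at an unadjusted p under 0.05. LRIG1, a membrane protein that promotes receptor degradation, gave 49.1, 44.6 and 45.3 on the maspin-labelled arrays and 38.1, 34.0 and 32.1 on the control-labelled arrays. SOCS5, a suppressor of cytokine signalling that also acts on EGFR, gave 137, 146 and 137 on the maspin-labelled arrays and 96.4, 121 and 87.0 on the control-labelled arrays. Neither gene overlapped between the lines, and neither passed, with 0.42 for LRIG1 (SE 0.09, limma adjusted p = 0.114) and 0.48 for SOCS5 (SE 0.12, limma adjusted p = 0.159).

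Of the adaptors and kinases, 24 probes were tested and 19 had a log2 fold change above 0, with a median of 0.09. Over all probes tested, 40.7% were below 0 and the median was 0.034. The smallest p-values belonged to PIK3CA, a catalytic subunit of PI3K, at 0.31 (limma adjusted p = 0.177), and BRAF, a kinase that activates MEK, at 0.43 (0.352), neither of which passed. For the feedback and output genes of ERK, 18 probes had a median of -0.04. IER3, an immediate early gene, gave 2062, 2111 and 2171 on the maspin-labelled arrays and 1695, 1837 and 1461 on the control-labelled arrays. The log2 fold change of IER3 was 0.35 (SE 0.10, limma adjusted p = 0.186), and EGR1, an immediate early transcription factor, was at 0.22 (0.341). IER3, EGR1 and PIK3CA did not overlap between the lines, with maspin above control, whereas BRAF overlapped. That pattern was shown by 13.7% of tested probes with a value on all 6 arrays, and these genes were named for a small p. The lists were drawn up with earlier results of these arrays known and are given as counts and medians only.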

How the data were processed

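The 6 scanner files hold, per the file headers, a raw intensity, a background-subtracted intensity and a globally normalized intensity, for which the authors subtracted the mean background of the array and scaled the array to a common median, leaving dim probes blank. The deposited series table holds the same normalized values as whole numbers, treated as a score; it differed by at most 0.5. Date-like entries in place of gene symbols (33) were replaced by the symbol of their Entrez number. Probes with a mean above 10 in either line and a value on at least 2 arrays of each line (14903) were fitted on the log2 scale, taken from the deposited normalized intensity. The fit used lmFit and eBayes of limma 3.58.1 (R 4.3.3), with two-sided tests and Benjamini-Hochberg adjustment at 0.05. With 3 arrays per line, 0.1 is the smallest p that an exact permutation test allows. Tables and figures were drawn in Python 3.11.15, pandas 2.3.3 and matplotlib 3.10.9. The code was tested on simulated data. As alternatives, 18 settings were run, 6 of which leave out 1 array. The number of arrays limits the precision.

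Named genes were all members, SERPINB5, the neighbours on chromosome 4, the 5 genes nearest to EREG by profile and, of each list, up to 4 genes past the threshold or else the 2 with the smallest p. The rule for members uses symbols alone, but members and lists were chosen with earlier results of these data known. Of the marker lists (mesenchymal-like, luminal and epithelial, leukocyte, endothelial), no gene that could be tested passed the adjusted test. No slide or scan date was used.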

Additional observations from a re-analysis of the deposited data

How the results depend on the processing

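The number of member probes that passed as lower (2) was 0 with a minimum mean above 50, where EREG was not tested. It was also 0 in the methods' t-test (either scale) with the same adjustment. It was 1 with no minimum mean, with the deposited whole-number table and with 1 probe per gene, and ranged over 1 to 3 with each array left out. No setting gave a member probe that passed as higher. Before adjustment, 2 of the 10 were higher without replicate 2 of MB-231-control, where 3220 of all 14892 probes tested were higher. Over all probes, 76 were higher and 50 lower, against 18 and 7 (log2 values) or 18 and 6 (linear values) by the methods' t-test with the same adjustment. Before adjustment, that t-test gave 1395 higher and 646 lower (log2 values) or 1426 and 647 (linear values) of 14903 probes. On either scale, 3 of the 10 member probes were then lower. The adjusted limma counts were 171 and 93 with array weights, 29 and 19 with no minimum mean, and 27 and 22 with a minimum mean above 50. They were 163 and 123 with normexp and quantile normalization. With each array left out, 20 to 171 were higher and 15 to 104 lower. The median log2 fold change of the member probes (0.028) was 0.088 with a minimum mean above 50 and ranged over -0.029 to 0.084 with each array left out. The sign turned for ERBB2 under quantile normalization (0.017), and with arrays left out for ERBB2 (-0.092 to 0.072), ERBB3 (-0.15 to 0.050), HBEGF (-0.023 to 0.28) and the brighter NRG1 probe (-0.0098 to 0.52), none of which passed. The cause was not tested. No source used here states what arrays with the same replicate number share. Over 14898 tested probes their deviations correlated at -0.34, 0.49 and 0.22 for replicates 1, 2 and 3. Replicate 2 of MB-231-maspin correlated best with replicate 2 of MB-231-control. However, replicate 1 of MB-231-maspin correlated best with replicate 3 of MB-231-control (0.20), and replicate 3 of MB-231-maspin with replicate 1 of MB-231-control (0.29). With the replicate number as a block, 78 probes were higher and 61 lower, and 3 member probes passed as lower, with limma adjusted p = 0.00456 for EREG and 0.0121 and 0.0150 for AREG. EREG, ERBB2, ERBB3 and BTC lie close to the array background, and dim signals limit what can be detected there.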
